A study of Mus musculus with 16 samples.

Results

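The circadian clock genes Arntl, Clock, Per1, Per2, Per3, Cry1, Cry2, Nr1d1 and Dbp were examined in gastrocnemius muscle of mice. These 9 genes were taken by name out of the 24454 genes with counts, and all 9 passed the filter on low counts. RNA-seq had been done on 16 mice aged 3 months. HSALR mice, a model of myotonic dystrophy type I, were homozygous mice of the line LR20b, which carries a human skeletal actin transgene with expanded CTG repeats, and the FVB/N background strain served as control. Of the mice that received vehicle, 3 were control and 5 were HSALR, and of those that received AICAR at 500 mg/kg for 7 days, 3 were control and 5 were HSALR. AICAR is a cell-permeable compound that is converted into an AMP analog and activates AMP-activated protein kinase. The mice come from 1 transgenic line, and the transgene is that of a gene expressed in skeletal muscle. The hour at which the muscles were taken, and the time between the last AICAR dose and dissection, are not given in the sources used here, so that a difference in the level of a cycling gene and a difference in the phase of its cycle cannot be told apart. In a whole muscle, fewer cells of a type and less RNA per cell cannot be told apart either.

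The clock is a loop of transcription factors that runs in nearly every cell. The proteins of Arntl (also called BMAL1) and Clock bind E-boxes as a pair and activate the Per, Cry, Nr1d1 and Dbp genes. The PER and CRY proteins then block that pair, while the REV-ERB receptors, of which Nr1d1 encodes one, repress Arntl, and the ROR receptors activate it through the same element. In muscle, Arntl transcripts and those of Dbp and Nr1d1 are known to peak at opposite times of the day, and AMP-activated protein kinase is known to mark CRY1 for degradation.

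The letters to which these factors bind were sought in RefSeq promoter sequences, because they define which members of the loop act on which. The windows held 250 bases before the annotated start and 50 bases from it, on GRCm38.p6, and 12 windows belonged to 8 of the 9 genes, all but Per2. Of these 8 genes only Per3 matched the D-box letters searched. The stretches below are from Per3 and from the genes whose levels differed with AICAR in one of the tests described later. Each is written 5′ to 3′ on the strand of its gene, with the letters that matched in capitals. In Arntl (chr7:113207531-113207557, plus strand) these are the REV-ERB and ROR element, in Nr1d1 (chr11:98775390-98775415, minus strand), Cry1 (chr10:85185107-85185135, minus strand) and Cry2 (chr2:92434220-92434245, minus strand) E-boxes and E-box variants, and in Per3 (chr4:151044853-151044880, minus strand) the first of a pair of D-boxes.
Arntl: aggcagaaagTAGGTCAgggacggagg
Nr1d1: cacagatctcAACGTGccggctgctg
Cry1: gaAACGTGaggtgccggtggtCACGTGgg
Cry2: acatggtgggAACGTGagggggcgga
Per3: gacccgcgcgTTATGTAAggtactcggg

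Both strands were searched. The canonical E-box CACGTG stood 60 bases before the start of Cry1 and 166 bases before that of Per1, and 7.15% of the 32851 windows of all genes held it. Its variant CACGTT, on the strand opposite to the gene and therefore read as AACGTG, stood 28 bases before the start of Nr1d1, 79 before that of Cry1 and 166 before that of Cry2, and was in 4.68% of all windows. The receptor element TAGGTCA, which contains the shorter AGGTCA, was found in 1 window of Arntl, 30 bases downstream of its start, and in 2.61% of all windows. The shorter AGGTCA, with or without the leading T, was in 16.3% of all windows, and also stood in windows of Clock and Per1. Per3 carried the D-box TTATGTAA at 205 and 158 bases before the start, against 0.938% of all windows, while TTACGTAA (0.119%) and the cAMP response element TGACGTCA (1.79%) were in no window of these 8 genes. None of the letters searched was in the window of Dbp. A match describes these bases only, and says nothing of binding in this muscle.

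The libraries held between 64890014 and 81987726 counted reads, with a median of 73021286, and the 9 genes had at least 437 counts in every library. Levels are given as normalized CPM, counts scaled to a common library size with TMM factors. The skeletal muscle markers were high in every library, with a sum of 6 markers between 99439 and 153480 normalized CPM. Epidermis markers moved with the groups. Krt14, a keratin of skin, was above 1 normalized CPM in 1 control vehicle, 1 control AICAR, 4 HSALR vehicle and none of the HSALR AICAR libraries, and the sum of the 8 epidermis markers reached 187 normalized CPM in HSALR vehicle but stayed between 0.242 and 0.371 in HSALR AICAR. Endothelial markers were lower in HSALR than in control muscle after vehicle, with sums of 155 to 204 against 234 to 261 normalized CPM. The part of these cells in the results below was not tested. A fit without the 6 libraries with Krt14 above that limit keeps S451 as the one HSALR vehicle mouse, which had the highest Arntl and Clock and the lowest Per2, Per3 and Cry2 of the 5 mice of its group. Its comparisons with HSALR vehicle mice therefore describe that mouse and are not read as calls.

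Per kilobase of counted exon, Nr1d1 and Dbp were the highest of the 9 genes and Per2 was the lowest in control mice after vehicle. Nr1d1 stood at 59.97 ± 9.16 normalized CPM per kb and Dbp at 55.8 ± 19.6 (SD, n = 3), with overlapping values. Cry2 followed at 13.3 ± 1.89 and Per1 at 11.0 ± 3.85. Arntl (6.65 ± 1.80), Clock (6.45 ± 0.890) and Cry1 (6.36 ± 0.218 normalized CPM per kb) formed the middle of the order and overlapped. Per3 (4.88 ± 0.690) and Per2 (2.05 ± 0.733) were each below all mice of the gene before them. After AICAR in control mice Arntl moved from the fifth place to the last, at 2.27 ± 0.127 normalized CPM per kb, below every value of each other clock gene in that group. In HSALR mice after AICAR it was the eighth, at 3.24 ± 0.636, and overlapped Per2 at 3.20 ± 0.997.

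**Figure D1:**
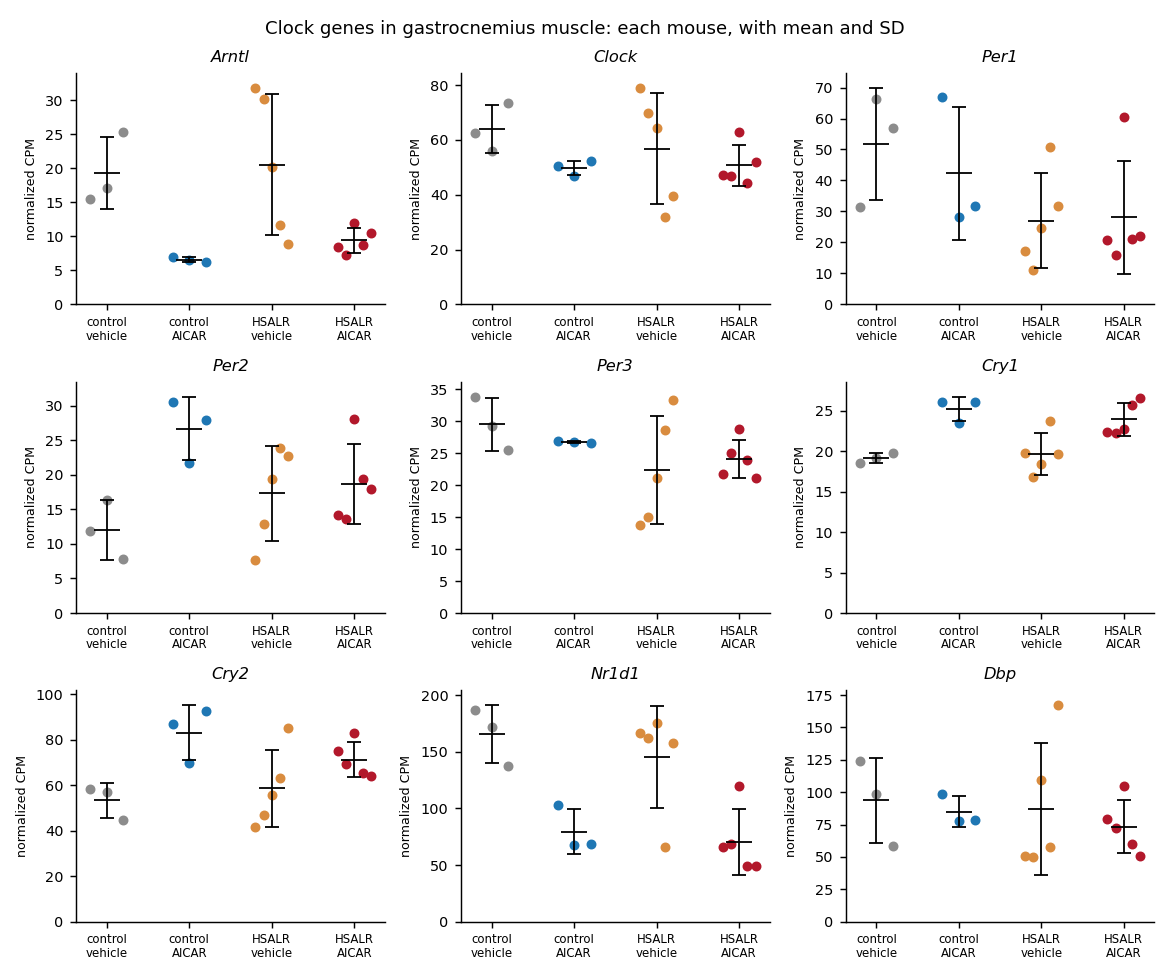
Level of each of the 9 clock genes in each mouse in normalized CPM (linear axes from 0, on a different scale for each gene), in the 4 groups of genotype and treatment. Each point is a mouse and the black bars give the mean and SD. Arntl lies between 6.26 and 12.0 normalized CPM in the mice that received AICAR and between 8.93 and 31.8 in those that received vehicle.

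The first comparison asked whether the AICAR treatment was accompanied by a change in clock gene levels. In control mice Arntl fell and Cry1 rose, in HSALR mice Arntl and Nr1d1 fell and Cry1 rose, and the other members did not pass the test in either genotype. A gene passed at an adjusted p under 0.05 (quasi-likelihood test of edgeR, Benjamini-Hochberg over 15487 genes). In control mice 2 of 9 members passed, 1 higher and 1 lower, where 13.2% of all genes passed (8.4% higher and 4.77% lower). That count was 0 without S449, 1 without S445, S447 or S450, 4 without S451, S458 or S460, and 5 by DESeq2, which added Cry2, Per2 and Nr1d1. In HSALR mice 3 of 9 passed, 1 higher and 2 lower, where 26.6% of all genes passed (13.7% higher and 13% lower). These shares over all genes depend on the scaling. Of the genes called in HSALR mice 51.3% were higher, but 30.9% with library sizes alone and 25.2% relative to Tbp, and in control mice these shares were 63.8%, 50.7% and 94.3%. The median log2 fold change over the 9 members was 0.05 in HSALR and -0.14 in control mice, against -0.02 and -0.01 over all genes.

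Arntl (chr7:113178471-113314126, GRCm38, plus strand), the activator whose loss stops the clock, measured 15.5, 17.2 and 25.3 normalized CPM in control mice after vehicle, and 7.00, 6.57 and 6.26 after AICAR. All control mice that received AICAR were below all that received vehicle. The fold change was 2.92-fold lower (log2 fold change -1.55, SE 0.383, adjusted p = 0.0154). In HSALR mice Arntl ranged more widely after vehicle, at 31.8, 30.2, 20.2, 11.6 and 8.93 normalized CPM, than after AICAR, at 8.52, 7.29, 12.0, 8.80 and 10.5. The highest AICAR mouse lay above the 2 lowest vehicle mice, so the groups overlapped. Arntl was 2.18-fold lower in HSALR mice after AICAR (log2 fold change -1.13, SE 0.292, adjusted p = 0.0104). This call held under each alternative that kept more than 1 HSALR vehicle mouse, with the smallest change, a log2 fold change of -0.91, without S451, whereas the call in control mice was lost without mouse S449 (adjusted p = 0.0602) or S450 (adjusted p = 0.0598). 

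Nr1d1 (chr11:98767932-98775377, minus strand), the REV-ERB receptor that represses Arntl, fell in HSALR mice together with Arntl. Its levels there were 167, 162, 175, 65.6 and 158 normalized CPM after vehicle and 66.1, 68.8, 120, 49.2 and 48.7 after AICAR. The overlap came from a single vehicle mouse, S458, which lay inside the AICAR values, while S460 was the highest of the AICAR mice and below the other 4 vehicle mice. The level was 2.07-fold lower after AICAR (log2 fold change -1.05, SE 0.272, adjusted p = 0.0106), and this call too held under each alternative that kept more than 1 HSALR vehicle mouse. With S451 as the one HSALR vehicle mouse, the log2 fold change was -1.76 for Arntl and passed, and the adjusted p was 0.0855 for Nr1d1 and 0.202 for Cry1, values that describe that mouse. Control mice had 188, 172 and 138 normalized CPM after vehicle and 103, 67.4 and 68.7 after AICAR, without overlap, and a log2 fold change of -1.06 (SE 0.351) that missed the threshold at an adjusted p of 0.0583. It passed under 4 of 27 alternatives, by DESeq2 (adjusted p = 0.0342), with only the 2 groups compared (0.0226), and without S458 (0.0208) or S460 (0.0260), HSALR mice that enter that comparison through the shared estimate of spread. Nr1d1 overlaps Thra, a thyroid hormone receptor gene on the opposite strand, in the annotation. Whether the strand was used in counting is not stated. Thra itself had a log2 fold change of 0.01 in HSALR mice and -0.07 in control mice (adjusted p = 0.910 and 0.606).

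Cry1 (chr10:85131700-85185054, minus strand), a repressor of the activator pair, changed little in size but also varied little. It stood at 18.5, 19.2 and 19.9 normalized CPM in control mice after vehicle and at 26.0, 23.5 and 26.1 after AICAR, without overlap. The increase was 1.31-fold (log2 fold change 0.39, SE 0.106, adjusted p = 0.0238). In HSALR mice the levels were 19.8, 16.8, 18.4, 23.8 and 19.7 after vehicle and 22.3, 22.3, 22.7, 25.8 and 26.6 normalized CPM after AICAR, where a single vehicle mouse, S458, lay within the AICAR values. The increase was 1.22-fold (log2 fold change 0.28, SE 0.0821, adjusted p = 0.0193). The Cry1 calls were the least stable of the calls. The one in HSALR mice was lost without S463 (adjusted p = 0.0525) or S453 (0.0504). It was also lost with library sizes alone (log2 fold change 0.20, adjusted p = 0.0932) and relative to Tbp (log2 fold change 0.17, adjusted p = 0.291). With an epidermal score as covariate it was lost too (log2 fold change 0.23, adjusted p = 0.186). The one in control mice was lost with library sizes alone (0.0584) and without any of S445 (adjusted p = 0.0823), S446 (0.0592), S447 (0.0641) and S449 (0.0803).

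Cry2 (chr2:92403646-92434085, minus strand), the second cryptochrome, was 58.2, 57.2 and 44.6 normalized CPM in control mice after vehicle and 87.1, 69.8 and 92.7 after AICAR, without overlap. Its log2 fold change of 0.64 (SE 0.207) missed the threshold at an adjusted p of 0.0519. It passed under 7 of 27 alternatives. These were DESeq2 (adjusted p = 0.0161), scaling to Tbp (0.0336), at least 10 counts in every library (0.0482) and only the 2 groups compared (0.0382). The others were the fits without S451 (0.0355), without S459 (0.0158) and without the 6 libraries with Krt14 (log2 fold change 0.63). That last fit dropped 1 of the 3 mice of each control group and left 1 HSALR vehicle mouse. In HSALR mice the values after vehicle, 41.4, 46.9, 55.8, 63.4 and 85.2 normalized CPM, enclosed those after AICAR, 75.1, 69.3, 82.8, 65.3 and 63.9. The log2 fold change there was 0.28 (SE 0.160, adjusted p = 0.210), and 0.46 without S459, the highest vehicle mouse (adjusted p = 0.0200).

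Per2 (chr1:91415977-91459351, minus strand), a period gene that also responds directly to signals from outside the cell, had 11.9, 16.3 and 7.79 normalized CPM in control mice after vehicle and 30.5, 21.6 and 27.8 after AICAR. The groups did not overlap, and the log2 fold change of 1.15 (SE 0.373) had an adjusted p of 0.0531. It passed the threshold under 8 of 27 alternatives, by DESeq2 (adjusted p = 0.0292), relative to Tbp (0.0343), with at least 10 counts in every library (0.0488), with only the 2 groups compared (0.0424), and without S446 (0.0442), S451 (0.0231), S458 (0.04999) or S460 (0.0405). In HSALR mice the values were 7.65, 12.8, 19.4, 23.8 and 22.8 normalized CPM after vehicle and 14.2, 13.6, 28.1, 19.4 and 17.97 after AICAR, interleaved, with a log2 fold change of 0.11 (SE 0.285, adjusted p = 0.814).

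Clock, Per1, Per3 and Dbp did not pass the test with AICAR in either genotype. Clock (chr5:76209868-76305603, minus strand), the partner of Arntl, had log2 fold changes of -0.36 in control mice and -0.17 in HSALR mice, with 95% confidence intervals of -0.90 to 0.18 and -0.59 to 0.25. The value in HSALR mice ran from -0.32 without S458 to -0.019 without S451 when 1 mouse was left out. In control mice its 3 AICAR values, from 47.0 to 52.2 normalized CPM, were below the 3 vehicle values, from 56.0 to 73.5. Per3 (chr4:150997018-151044707, minus strand), a period gene that is not needed for the rhythm itself, lay at 26.9, 26.8 and 26.7 normalized CPM in control mice after AICAR, inside the vehicle values of 25.5 to 33.8. Dbp (chr7:45705100-45710203, plus strand), an output factor that binds D-boxes, had log2 fold changes of -0.14 in control mice (95% confidence interval -1.02 to 0.74) and -0.24 in HSALR mice (-0.93 to 0.44). Its range after vehicle, 58.8 to 124 normalized CPM in control and 50.0 to 167 in HSALR mice, covered all of the values after AICAR. Per1 (chr11:69095108-69109965, plus strand), which is induced quickly by many hormones, had the widest intervals. They ran from -1.45 to 0.87 in control mice and from -0.85 to 0.96 in HSALR mice. Changes within these intervals are not excluded, and the adjusted threshold asks for larger changes than these unadjusted intervals do. Dbp overlaps Sphk2 in the annotation, which fell in HSALR mice after AICAR (log2 fold change -0.44, adjusted p = 0.00260).

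**Figure D2:**
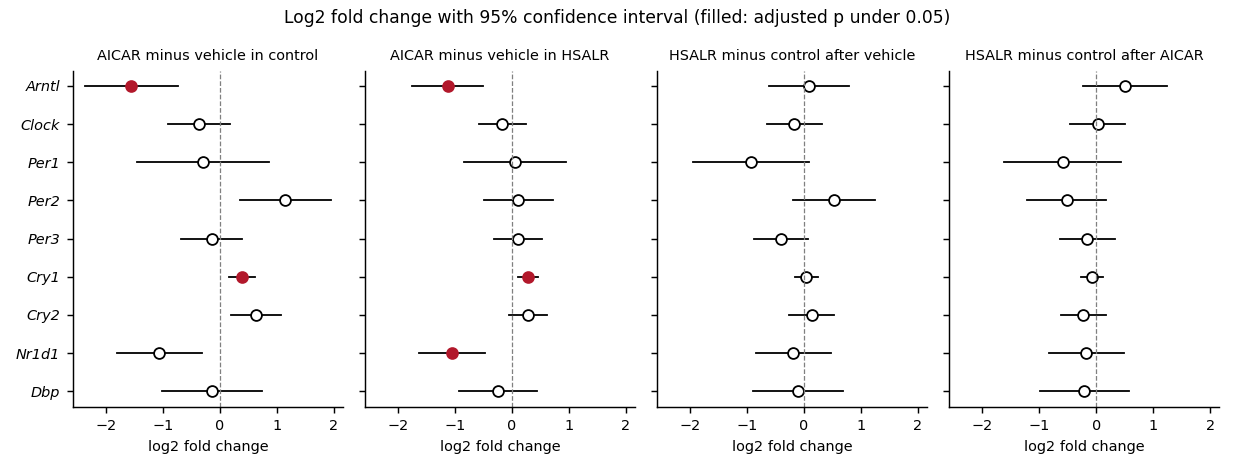
Log2 fold change of each clock gene (x axis) in 4 comparisons, with its 95% confidence interval from the edgeR fit to all 16 mice, where filled points passed an adjusted p of 0.05. Arntl is lower with AICAR in both genotypes, at -1.55 and -1.13, and no point is filled in the comparisons of genotypes.

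The mean of the AICAR effects in the 2 genotypes was added to the comparisons after these values had been seen. In it 4 of 9 members passed, 2 higher and 2 lower, where 30.7% of all genes passed (16.6% higher and 14.1% lower). Higher genes were 54.1% of those called, 35.1% with library sizes alone and 67.0% relative to Tbp. Arntl was 2.53-fold lower (log2 fold change -1.34, SE 0.241, adjusted p = 0.000729) and Nr1d1 2.07-fold lower (log2 fold change -1.05, SE 0.223, adjusted p = 0.00228). Cry1 was 1.26-fold higher (log2 fold change 0.34, SE 0.0671, adjusted p = 0.00146) and Cry2 1.38-fold higher (log2 fold change 0.46, SE 0.130, adjusted p = 0.0143). Per2 had a log2 fold change of 0.63 (SE 0.234, adjusted p = 0.0526), and it passed under 9 of 26 alternatives. These were DESeq2 (adjusted p = 0.0412), limma with voom (0.0435), RLE scaling (0.0492), at least 10 counts in every library (0.04998), the fits without S446 (0.0331), S455 (0.0452), S458 (0.0361) or S459 (0.0430), and the one without the Krt14 libraries (adjusted p = 0.0143), which rests on S451 for HSALR vehicle. The calls of Arntl, Nr1d1 and Cry1 held under all 26 alternatives tried for this mean, and that of Cry2 under 25. Of the 26, 1 has S451 as its one HSALR vehicle mouse. The exception for Cry2 was the epidermal score as a covariate (log2 fold change 0.43, adjusted p = 0.0595).

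The difference between the AICAR effects in HSALR and control mice was not called for any member by edgeR, where 0.691% of all genes were called, 29.9% of them higher, or 1.57% relative to Tbp. At an unadjusted p under 0.05 there was 1, Per2, whose difference in log2 fold change was -1.04 (SE 0.467, edgeR adjusted p = 0.308). For Arntl the difference was 0.42 with a 95% confidence interval of -0.59 to 1.43, and 0.18 to 0.64 when 1 mouse was left out. For Nr1d1 it was 0.01 with an interval of -0.92 to 0.95. Differences within these unadjusted intervals are therefore not excluded for these genes, and the adjusted threshold asks for larger ones.

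The second comparison asked whether clock gene levels differed between HSALR and control muscle. No member was called by edgeR after vehicle, where 26.9% of all genes were called (15.4% higher and 11.5% lower; higher genes were 57.2% of those called, and 95.4% relative to Tbp), and none after AICAR, where 21.8% were called (12.2% higher and 9.64% lower). None had an unadjusted p under 0.05 in either comparison. Arntl was 19.3 ± 5.23 normalized CPM in control mice (SD, n = 3) and 20.6 ± 10.4 in HSALR mice (SD, n = 5) after vehicle, with a log2 fold change of 0.09 and a 95% confidence interval of -0.62 to 0.79. Per1 had the lowest fold change, with 51.6 ± 18.1 normalized CPM in control and 27.1 ± 15.3 in HSALR mice after vehicle, a log2 fold change of -0.93 and an interval of -1.95 to 0.09 (adjusted p = 0.168). The narrowest interval was that of Cry1, from -0.17 to 0.24. Per3 had a log2 fold change of -0.40 after vehicle (adjusted p = 0.207), which passed when S459 was left out (log2 fold change -0.59, adjusted p = 0.0425). After AICAR the log2 fold changes lay between -0.59 for Per1 and 0.51 for Arntl. That of Per1 moved to -1.08 without S460 and to -0.092 without S447, and passed in none of the fits that left out 1 mouse. Arntl was then 6.26 to 7.00 normalized CPM in control and 7.29 to 12.0 in HSALR mice, without overlap, but the interval of -0.22 to 1.24 included 0 (adjusted p = 0.308). In a fit of these 2 groups alone the difference passed (log2 fold change 0.50, adjusted p = 0.0447).

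Most members differed more between mice of the same group than other genes did. The SD of log2 levels within groups was 0.73 for Per1, 0.56 for Dbp, 0.52 for Per2, 0.52 for Arntl and 0.49 for Nr1d1, against a median of 0.17 over all genes tested, which placed these 5 between percentile 94.0 and percentile 97.8. Clock (percentile 84.6), Per3 (83.4) and Cry2 (73.5) varied less, and Cry1 (SD 0.13, percentile 39.2) varied less than the median gene. For each of the 9 genes the SD was widest in the HSALR vehicle group. The share of all tested genes with their widest SD in that group was not computed, so nothing particular to the clock genes is read from this. There the highest mouse exceeded the lowest 3.56-fold for Arntl, 3.34-fold for Dbp, 4.52-fold for Per1 and 3.11-fold for Per2, while in control mice after AICAR, with 3 mice instead of 5, the same ratios were 1.12 for Arntl, 1.27 for Dbp, 2.37 for Per1 and 1.41 for Per2.

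Deviations of the mice from their group were compared between members. Of the 36 pairs of members, 5 were correlated past an adjusted p of 0.05, each of them positively, in deviations from the group mean over 16 mice. The p-values are two-sided, from 100000 permutations of the mice within groups, and Benjamini-Hochberg adjusted over the 36 pairs. The partners Arntl and Clock gave the highest Pearson's r, 0.898 (permutation p = 0.00293, adjusted p = 0.0387), with Spearman's rho of 0.909 (permutation p = 0.00103, adjusted p = 0.0371). Without S451 and S459, the mice farthest from the median of Arntl, r was 0.875, and over the 11 mice outside the HSALR vehicle group it was 0.793. Per3 and Cry2 had r of 0.877 (permutation p = 0.00058, adjusted p = 0.0209) and rho of 0.756 (p = 0.0081, adjusted p = 0.0589), and r of 0.718 without S451 and S459 and 0.624 outside the HSALR vehicle group. Cry2 and Dbp had r of 0.810 and rho of 0.753, with r of 0.648 without S451 and S459, and r of 0.819 outside the HSALR vehicle group. Per2 was correlated with Per3 (r = 0.780, rho = 0.706) and with Cry2 (r = 0.781, rho = 0.765), and without S450 and S451 these r were 0.660 and 0.651, and outside the HSALR vehicle group 0.577 and 0.663. The permutation p-values of these last 3 pairs were 0.00351, 0.00537 and 0.00456, each with an adjusted p of 0.0387. By Spearman's rho only Arntl and Clock passed, which is 1 of 36 pairs. The share of correlated pairs over all genes was not computed, so nothing particular to the clock genes is read from these counts. Arntl had a negative r with Per3 (-0.868, permutation p adjusted 0.0619) and with Cry2 (-0.784, permutation p adjusted 0.0596), which did not pass. Over the 11 mice outside the HSALR vehicle group these were -0.228 and -0.233.

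**Figure D3:**
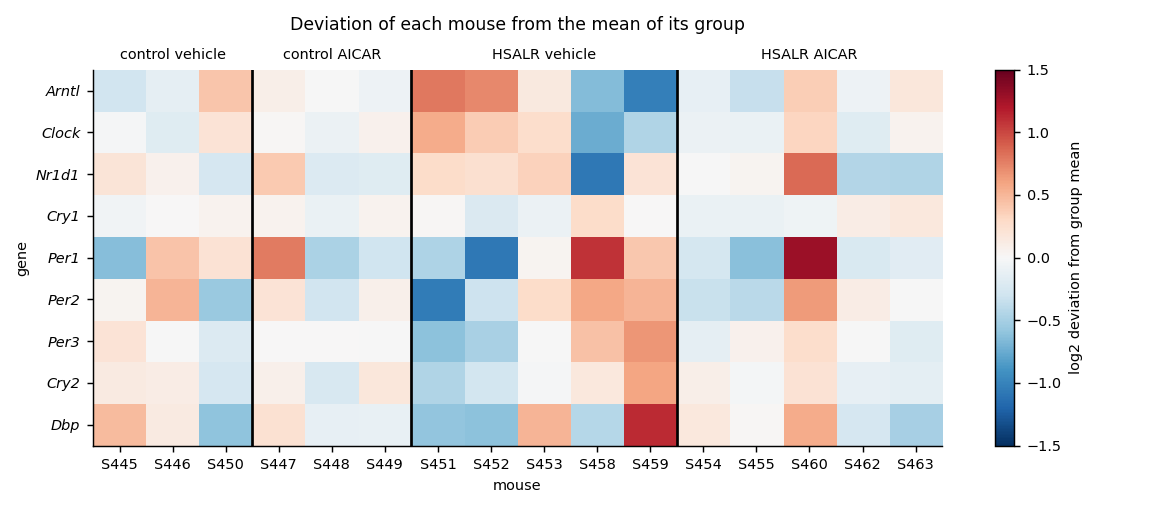
Deviation of each mouse (columns, split by group) from the mean of its group for the 9 clock genes (rows), in log2 units, red above and blue below the mean. In the HSALR vehicle group S451 and S452 are above the mean in Arntl and Clock and below it in Per3, Cry2 and Dbp, and S459 is the reverse.

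Within the HSALR vehicle group S451 had the highest Arntl, 31.8 normalized CPM, with the lowest Per2, 7.65, and the lowest Per3, 13.8. S459 had the lowest Arntl, 8.93, with the highest Per3, 33.3, the highest Cry2, 85.2, and the highest Dbp, 167 normalized CPM. Arntl and Per2 were not among the pairs that passed, with r of -0.556 (permutation p adjusted 0.243) over 16 mice and of 0.119 outside the HSALR vehicle group. In that group the ratio of Arntl to Per2 counts ran from 0.392 in S459 to 4.15 in S451. In HSALR mice after AICAR the ratio was between 0.428 and 0.599, in control mice after AICAR between 0.225 and 0.304, and in control mice after vehicle between 1.05 and 3.25. The ratio of Nr1d1 to Cry2 was 3.01 to 3.22 in control mice after vehicle and 0.742 to 1.18 after AICAR, and 1.03 to 4.03 in HSALR mice after vehicle against 0.753 to 1.45 after AICAR. S458 was the one HSALR vehicle mouse whose Nr1d1 to Cry2 ratio, 1.03, lay inside the values of the AICAR mice.

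Among 12511 genes with a mean of at least 1 CPM, those most like Arntl in these within-group deviations were Leo1 (r = 0.942), Hsp90aa1 (0.913), Dlg5 (0.908), Chuk (0.901) and G3bp1 (0.900), each above the 0.898 of Clock, and the most opposed were Prrg2 (-0.935), Gmpr (-0.916), Mcm3 (-0.904), Gm9895 (-0.898) and Slc8a3 (-0.895). Those most like Dbp were Jarid2 (0.864), A330023F24Rik (0.859), Mutyh (0.836), Dnttip1 (0.834) and Chpf2 (0.825), and the most opposed were Katna1 (-0.845), Fbxo10 (-0.844), Nat14 (-0.840), Npm3 (-0.837) and Raly (-0.823). These r are a description over the 16 mice, and the mice share their group means and libraries across genes.

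The rest of the clock machinery was counted over 18 further genes in lists. With AICAR, 5 of the 18 were higher and 1 lower in HSALR mice, where 13.7% and 13% of all genes were, and 1 higher and 1 lower in control mice, where 8.4% and 4.77% of all genes were. Between genotypes 1 was higher and 2 were lower after vehicle (15.4% and 11.5% of all genes), and 0 higher and 3 lower after AICAR (12.2% and 9.64% of all genes). Nothing particular to these lists is read from their counts. The lists follow by role, with Arntl, Nr1d1 and the other members included in their counts.

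Of the 4 core activators, Arntl and Npas2 fell with AICAR in both genotypes. Npas2, which can take the place of Clock, was low, and fits that left out 1 mouse are not given for it. It measured 1.02, 1.11 and 1.64 normalized CPM in control mice after vehicle and 0.284, 0.314 and 0.172 after AICAR (log2 fold change -2.28, SE 0.614, adjusted p = 0.0236). In HSALR mice it was 3.45, 1.48, 1.08, 0.621 and 0.586 after vehicle and 0.480, 0.297, 0.882, 0.351 and 0.627 normalized CPM after AICAR, with overlap (log2 fold change -1.45, SE 0.448, adjusted p = 0.0259). Arntl2, a relative of Arntl, was lower in HSALR than in control mice after vehicle (log2 fold change -2.23, adjusted p = 2.35e-05) and after AICAR (-1.13, adjusted p = 0.00749). Its level was low as well, with means after vehicle of 0.626 normalized CPM in control and 0.132 in HSALR mice. Of the 5 period and cryptochrome repressors, only Cry1 passed with AICAR in either genotype, and none passed between genotypes.

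Of 4 REV-ERB and ROR receptor genes, Nr1d1 fell and Rora rose with AICAR in HSALR mice, and none passed in control mice. Nr1d2, the other REV-ERB gene, did not pass in any of these comparisons, with log2 fold changes of -0.05 in HSALR mice and 0.24 in control mice with AICAR (adjusted p = 0.723 and 0.223). Rora had a log2 fold change of 0.42 with AICAR in HSALR mice (adjusted p = 0.0265) and of -0.42 in HSALR against control mice after vehicle (adjusted p = 0.0474), where Rorb was higher (0.92, adjusted p = 0.0285). Rorb was low, with means after vehicle of 0.279 normalized CPM in control and 0.529 in HSALR mice.

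Of the 3 auxiliary repressors, Bhlhe41, which also acts on E-boxes, rose with AICAR in both genotypes. It went from 47.3, 47.9 and 27.4 to 165, 152 and 214 normalized CPM in control mice, a log2 fold change of 2.12 (SE 0.329, adjusted p = 0.000963). In HSALR mice its level was 39.1 ± 11.6 after vehicle and 89.8 ± 34.8 normalized CPM after AICAR (SD, n = 5), without overlap, a log2 fold change of 1.20 (SE 0.249, adjusted p = 0.00265). After AICAR it was lower in HSALR than in control mice (log2 fold change -0.98, adjusted p = 0.0201). Ciart, a repressor of the Clock and Arntl pair, had log2 fold changes of 1.48 in control mice (adjusted p = 0.220) and 1.70 in HSALR mice (adjusted p = 0.0510). It passed in the mean of both (1.59, adjusted p = 0.0233). In HSALR mice after AICAR S460 was at 24.6 normalized CPM against 2.89 to 6.72 in the others. Control mice after AICAR ran from 9.19 to 24.1, with a median of 9.40. Fits that left out 1 mouse are not given for Ciart. Bhlhe40 was not called in any comparison.

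**Figure D4:**
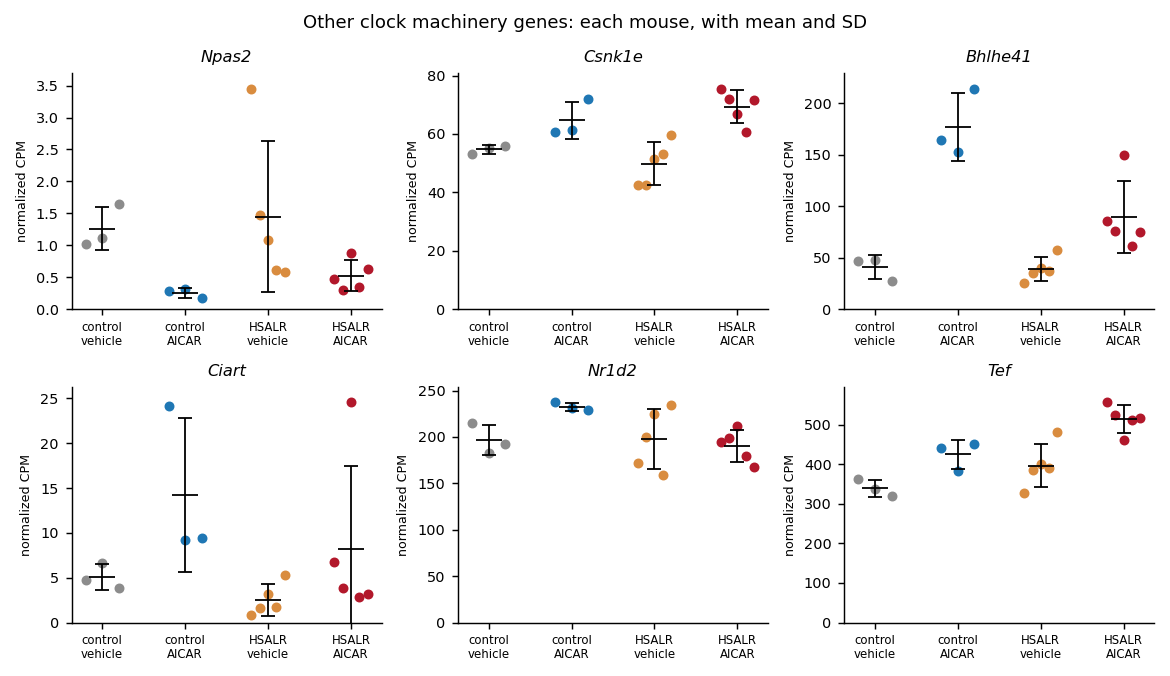
Level of 6 further clock machinery genes in each mouse in normalized CPM (linear axes from 0), by group, with mean and SD as black bars (the lower bar of Ciart in HSALR AICAR mice is cut at 0). Bhlhe41 and Csnk1e are higher in every AICAR mouse than in any vehicle mouse of the same genotype, whereas Nr1d2 overlaps in HSALR mice.

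Of the 4 PAR bZIP and D-box factors, Tef rose in HSALR mice with AICAR (log2 fold change 0.38, adjusted p = 0.00502), and Nfil3, the repressor that competes with Dbp for D-boxes, was lower in HSALR than in control mice after AICAR (log2 fold change -1.09, adjusted p = 0.0137). Of 7 genes of period and cryptochrome turnover, Csnk1d and Csnk1e, kinases that phosphorylate the period proteins, rose in HSALR mice with AICAR (log2 fold change 0.32 and 0.48, adjusted p = 0.00677 and 0.00139), and none passed in control mice or between genotypes.

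Of the 14 clock output genes, 5 were higher and 2 lower with AICAR in HSALR mice, and 4 higher and 1 lower in control mice, where 13.7% and 13% of all genes were higher and lower in HSALR mice, and 8.4% and 4.77% in control mice. The median log2 fold change of the 14 was 0.17 and 0.33, against -0.02 and -0.01 over all genes, and nothing particular to the list is read from these. Nampt (NAD synthesis), Por (electron donor to cytochrome P450), Hk2 (hexokinase) and Tbc1d1 (glucose uptake) rose in both genotypes, with log2 fold changes in HSALR and control mice of 0.78 and 0.52 for Nampt, 0.49 and 0.48 for Por, 1.24 and 1.60 for Hk2, and 1.09 and 1.31 for Tbc1d1. Myod1, a myogenic factor activated by Clock and Arntl, fell in both, with log2 fold changes of -2.77 (adjusted p = 8.01e-05) and -1.93 (adjusted p = 0.0128). Tsc22d3 rose and Cdkn1a fell in HSALR mice. Between genotypes 3 were higher and 2 lower after vehicle, Cdkn1a, Tbc1d1 and Myod1 against Nampt and Pdp1, and 0 higher and 2 lower after AICAR, Pdp1 and Usp2, where 26.9% and 21.8% of all genes passed.

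Another 2 lists of genes, which respond to signals known to set peripheral clocks, were counted as well. Of all genes, 26.6% passed with AICAR in HSALR mice, 13.2% in control mice, and 26.9% and 21.8% between genotypes after vehicle and after AICAR, and with 8 and 7 genes nothing particular to these lists is read from the counts. Of the 8 glucocorticoid-responsive genes, 4 were higher with AICAR in HSALR mice (Tsc22d3, Fkbp5, Zbtb16 and Mt2) and 2 higher and 1 lower in control mice (Zbtb16, Mt2 and Sgk1). Mt2, a metallothionein, had log2 fold changes of 2.96 in HSALR and 3.31 in control mice. Of the 7 temperature-responsive genes, 4 heat shock genes (Hspa1a, Hspa1b, Hsph1 and Dnajb1) were lower with AICAR in HSALR mice and none passed in control mice, while Hspa1a, Hspa1b and Hspa8 were higher in HSALR than in control mice after vehicle. After AICAR Sgk1 was higher and Hsph1 lower in HSALR than in control mice. The part of these signals in the levels of the clock genes was not tested.

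Markers of cell types were counted with AICAR as well, where 26.6% of all genes passed in HSALR and 13.2% in control mice. In HSALR mice all 8 epidermis markers were lower. Pecam1 and Tie1 of the 4 endothelial markers were higher, and Col1a1 and Lum of the 4 fibroblast markers lower. Pvalb of the 6 skeletal muscle markers was lower. Of the 5 leukocyte markers Csf1r was lower (log2 fold change -0.32). Ptprc (0.34), Itgam (0.33), Cd68 (0.08) and Adgre1 (-0.06) did not pass. Apart from epidermis, nothing about these cell types is read from the counts. In control mice none of the markers of epidermis, endothelium, fibroblasts, leukocytes or skeletal muscle passed. The 5 adipocyte, 5 erythroid and 4 Schwann cell markers passed in neither, nor between genotypes. Between genotypes 26.9% of all genes passed after vehicle and 21.8% after AICAR. After vehicle all 4 endothelial markers were lower in HSALR mice, with Cd68 and Csf1r of the leukocyte markers and Acta1 higher. After AICAR 5 of 8 epidermis markers, Pecam1, Cdh5 and Myh4 were lower in HSALR mice and Acta1 higher. Those epidermis calls rested on 1 control AICAR library, with a marker sum of 104 normalized CPM against a group median of 0.341. Whether reads of the human skeletal actin transgene were counted in Acta1 was not tested. Without the 6 libraries with Krt14 above 1 normalized CPM, Arntl stayed lower with AICAR in control mice. Cry2 there had a log2 fold change of 0.63, and after AICAR one of -0.33 in HSALR against control mice. That fit dropped 1 of the 3 mice of each control group and left 1 HSALR vehicle mouse. These values are therefore given as effect sizes and not read as calls.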

How the data were processed

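RNA from gastrocnemius muscle had been made into stranded libraries. Per the study's methods, single-end reads were mapped to mm10 with STAR 2.5.2a, 1 location was reported for reads with several equal ones, and reads starting in RefSeq exons were counted with QuasR. Whether the strand was used is not stated. The values the authors deposited are these raw counts per gene. Symbols were taken from RefSeq for 24374 of 24454 Entrez identifiers.

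Counts were analysed with edgeR 4.0.16 in R 4.3.3 (filterByExpr, TMM, glmQLFit and glmQLFTest, 1 mean per group, 16 mice), with Benjamini-Hochberg adjustment over 15487 genes and a threshold of 0.05. Correlations used log2(normalized CPM + 0.1). Alternatives were DESeq2 1.42.0, limma 3.58.1 with voom, RLE, library-size and Tbp scaling, no filter, at least 10 counts in every library, robust estimation, only the 2 groups compared, an epidermal score as covariate, leaving out the libraries with Krt14 above 1 CPM, and leaving out each mouse. The scripts were tested on simulated data.

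The members and lists were chosen with earlier results of these data known. The text names the 9 members, list genes that passed or stand beside a member, and the 5 genes most like and most opposed to Arntl and Dbp. The labels name separate mice, and replicates differed by more than counting noise. Some list genes are not reported here.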

Additional observations from a re-analysis of the deposited data

Results flagged for a closer look

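In the 2 groups of 5 mice, 27 clock machinery genes gave 54 groups in which the highest or lowest mouse was compared with the rest. A mouse stood apart, with a gap to the nearest mouse of more than 0.710 of the range of the group, in 7 of them, where chance gives about 1 in 20. Of the 7, 5 were the same HSALR AICAR mouse, S460, which was the highest in Per1 (60.4 normalized CPM against 16.1 to 22.2 in the other mice of its group), Nr1d1 (120 against 48.7 to 68.8), Ciart (24.6 against 2.89 to 6.72), Bhlhe40 (429 against 91.0 to 151) and Bhlhe41 (150 against 61.5 to 85.8). The other 2 were the HSALR vehicle mouse S458, which was the lowest in Nr1d1 (65.6 against 158 to 175) and in Gsk3b (83.6 against 99.8 to 104). Values of the same mouse are not independent of each other.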

How the results depend on the processing

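With AICAR in control mice 2 members passed the threshold, but 5 by DESeq2, 5 with only the 2 groups compared, 4 relative to Tbp, 4 with at least 10 counts in every library, 1 with library sizes alone, and 0 to 4 when 1 mouse was left out. Between genotypes after vehicle 0 passed, 2 without the Krt14 libraries and 0 to 1 when 1 mouse was left out (1 without S459). After AICAR 0 passed, and 1 both with only the 2 groups compared and without the Krt14 libraries. Of the correlated pairs 5 became 3 with library sizes alone. Without the Krt14 libraries S451 was the one HSALR vehicle mouse, so the values of that setting that involve HSALR vehicle describe that mouse. The number of genes called in all fell without the Krt14 libraries to 904 between genotypes after vehicle, 899 and 697 with AICAR in HSALR and control mice, 2247 for their mean and 0 for the difference of the AICAR effects, from 4169, 4121, 2039, 4747 and 107. Those differences were 536 by DESeq2, 381 relative to Tbp, 57 with the epidermal covariate and 15 (without S448) to 371 (without S460) when 1 mouse was left out, with 12 of the 16 mice moving it by over 1.5 times. The covariate left 2108 with AICAR in HSALR mice, Tbp 1396 between genotypes after AICAR and 2823 for the mean, and only the 2 groups compared 1164 with AICAR in control mice. Leaving out 1 mouse gave 2214 (without S447) to 3790 between genotypes after AICAR and 1143 (without S449) to 2186 with AICAR in control mice, with 1214 without S445 and 1344 without S448.

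Scaling to Tbp moved the median of all genes to 0.28 between genotypes after vehicle, 0.19 and -0.13 with AICAR in control and HSALR mice, and -0.32 for their difference. No called value of a member changed sign under any alternative. Some log2 fold changes that had not passed did. Relative to Tbp these were Nr1d1 0.089, Dbp 0.19 and Clock 0.10 between genotypes after vehicle, Clock -0.010 after AICAR, Dbp 0.060 and Per3 0.060 with AICAR in control mice, Per1 -0.00316 and Per3 -0.00946 in HSALR mice, and Nr1d1 -0.29, Per3 -0.069 and Clock -0.11 for the difference. Without the Krt14 libraries they were Cry2 -0.48, Per2 -0.89 and Clock 0.40 between genotypes after vehicle, Clock -0.016 after AICAR, Dbp 0.52 with AICAR in HSALR mice, and Dbp 0.86, Nr1d1 -0.17, Cry2 0.15, Per2 0.24, Clock -0.42 and Arntl -0.44 for the difference. With library sizes alone they were Per1 -0.020 in HSALR mice and Nr1d1 -0.021 for the difference, with the covariate Nr1d1 -0.15 for the difference and Clock -0.015 between genotypes after AICAR, and with limma voom Arntl -0.062 between genotypes after vehicle. Leaving out 1 mouse gave, between genotypes after vehicle, Arntl -0.13 to 0.33, Dbp -0.49 to 0.14, Cry2 -0.039 to 0.23 and Cry1 -0.040 to 0.075, after AICAR Nr1d1 -0.45 to 0.051 and Clock -0.066 to 0.068, with AICAR in HSALR mice Per1 -0.43 to 0.41, Per3 -0.023 to 0.30, Per2 -0.086 to 0.25 and Dbp -0.41 to 0.13, in control mice Dbp -0.39 to 0.11, and for the difference Dbp -0.36 to 0.28, Per1 -0.15 to 0.84 and Nr1d1 -0.27 to 0.24. The cause of these changes was not tested. No paired analysis was possible because mice of different groups share no identifier. Each member had at least 437 counts in every library. The part of counting noise in the spread between the 3 or 5 mice of a group was not computed for the members.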
